A study of Mus musculus with 12 samples.

Results

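The 7 genes described here belong to the Ly6 and Lypd family of small surface proteins: 2010109I03Rik, Ly6a, Ly6c1, Ly6d, Ly6e, Lypd8 and Lypd2. They were taken by symbol from 46517 genes counted in epithelial cells of the mouse colon. 2010109I03Rik was chosen by its measured counts, which fell under dextran sulfate sodium (DSS), so its values are given as a description with no test. The other 6 were listed as relatives. RefSeq's gene table (GRCm38.p6) lists 2010109I03Rik as a synonym of Ly6m.

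Members of this family share a compact fold held by disulfide bonds, and most are tied to the outer face of the membrane by a glycosylphosphatidylinositol (GPI) lipid anchor. In the colon the best known member is Lypd8, which binds flagellated bacteria and keeps them out of the inner mucus layer. Ly6a, also called Sca-1, and Ly6e are known as genes induced by interferon, and Ly6c1 and its close relative Ly6c2 encode the Ly6C antigen of monocytes, some T cells and endothelium.

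The 12 samples were intestinal epithelial cells detached with EDTA from the colons of C57BL/6 mice aged 7 to 9 weeks. There were 4 groups of 3 biological replicates: wild-type (WT) untreated, WT given DSS for 48 h, Nfkb2-/- (called knockout below) untreated, and knockout given DSS for 48 h. DSS is a detergent-like polymer that injures the colon lining, and Nfkb2 encodes p100, the NF-kB precursor of the noncanonical pathway. The labels put the purity of the CD45.2-negative EpCAM-positive cells at about 90%, and name no cell type for the deletion. WT libraries carry one run of library numbers and knockout libraries the next, so library order and genotype cannot be told apart.

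Total counts ran from 5595909 to 8117740 a library. Nfkb2 was at 36.8 ± 6.50 CPM (counts per 1000000 counts of the library, scaled by edgeR's TMM factors; mean ± SD, n = 3 here and below) in WT untreated and 42.4 ± 3.33 in WT DSS, against 14.3 ± 2.89 and 17.4 ± 2.04 in the knockout groups. Its highest knockout sample (19.6 CPM) was below its lowest WT sample (30.7 CPM). Epcam, a defining epithelial gene, was between 2537 and 2885 CPM on average in the 4 groups. The leukocyte gene Ptprc was at 9.30 ± 2.43 CPM in WT untreated and at 14.6 ± 1.02, 27.7 ± 10.6 and 38.0 ± 9.12 in WT DSS, knockout untreated and knockout DSS. WT untreated replicate 3 was the lowest of its group for 9 of 13 family genes tested (69.2%). Among all 12522 genes tested it was the lowest for 36.9%, close to an even share among 3 replicates. Results that rest on it are given with and without it.

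Of the 7 members, 5 had enough counts to be tested, and 6 of the 7 lie in one stretch of 316.6 kb on chromosome 15 (GRCm38, 74732247 to 75048830). Lypd8 lies apart from them, on chromosome 11 (58379043 to 58390728, plus strand). Per kb of exon, a scale on which genes can be compared, Lypd8 in WT untreated stood at 14639 ± 3810 CPM per kb, Ly6a at 634 ± 243, Ly6e at 324 ± 44.5, Ly6c1 at 31.7 ± 10.4 and 2010109I03Rik at 13.8 ± 4.48. Ly6a ran from 364 to 836 CPM per kb in that group and Ly6e from 273 to 357. No neighbours in this order overlapped. Relative to their levels, Ly6a and Ly6e came closest, through WT untreated replicate 3 of Ly6a.

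**Figure D1:**
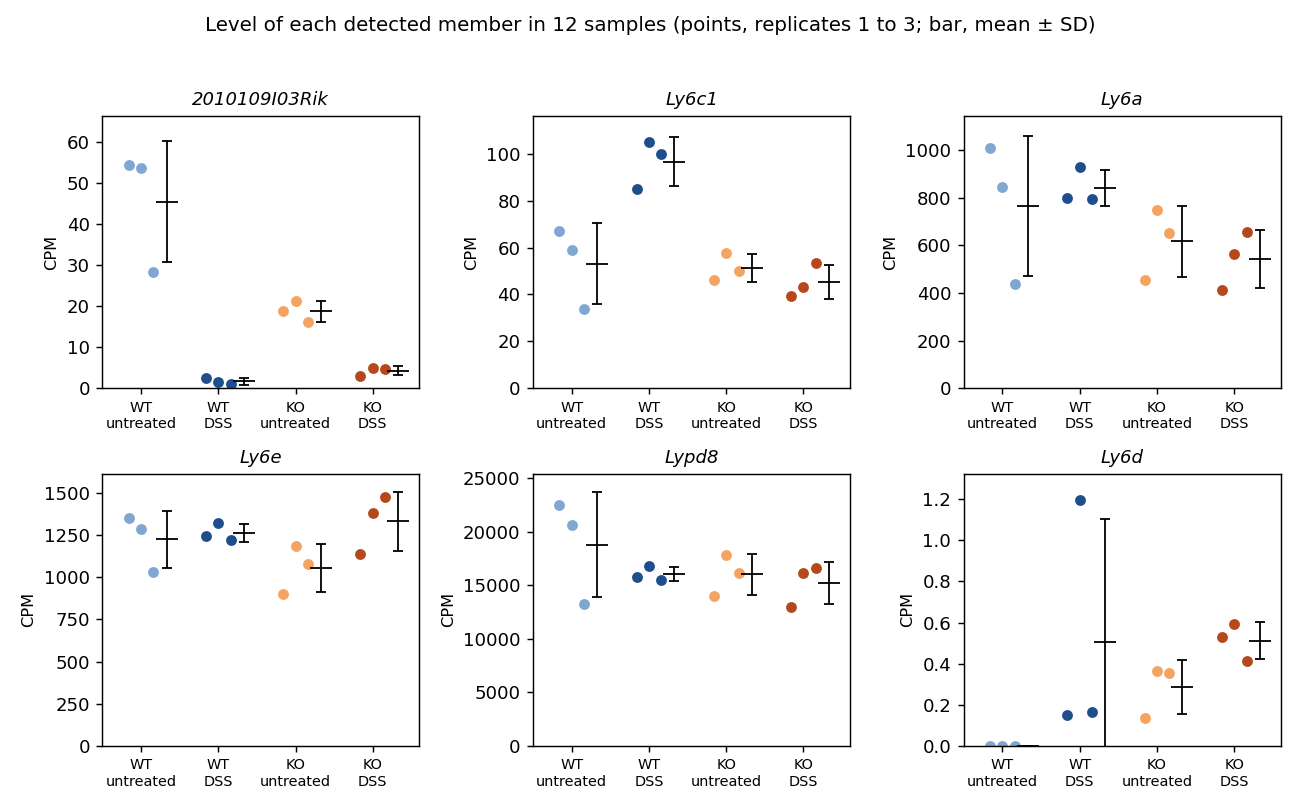
Level (CPM) of 6 members in each sample. Points are replicates 1 to 3 of each group and bars are mean ± SD (n = 3), cut at 0 for Ly6d. 2010109I03Rik is near 0 in WT DSS, Ly6c1 is highest in WT DSS, and Lypd8 lies between 12973 and 22515 CPM. Lypd2 had no count and is not drawn.

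Lypd8 (ENSMUSG00000013643.12), the barrier protein, was one of the most abundant transcripts in these cells. It took 1.77 ± 0.353% of all counts in WT untreated, 1.63 ± 0.0734% in WT DSS, 1.64 ± 0.187% in knockout untreated and 1.54 ± 0.195% in knockout DSS. By count it ranked second among all genes in 10 libraries and the third in the other 2, which were knockout DSS replicates 1 and 2. In WT untreated its level was 22515, 20620 and 13255 CPM, and in WT DSS 15760, 16752 and 15516. In knockout untreated it was 14013, 17858 and 16182 CPM, and in knockout DSS 12973, 16114 and 16591. The groups overlapped in every comparison. The log2 fold change under DSS was -0.23 (SE 0.16, edgeR adjusted p 0.512) in WT and -0.07 (SE 0.16, edgeR adjusted p 0.885) in the knockout. Between genotypes it was -0.23 (edgeR adjusted p 0.555) untreated and -0.07 (edgeR adjusted p 0.892) under DSS.

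The Lypd8 values in WT turned on which WT untreated library was left out. Without replicate 3 the fall under DSS in WT was -0.43 on the log2 scale (edgeR adjusted p 0.0192). The knockout was then lower than WT untreated by the same -0.43 (edgeR adjusted p 0.0270). Both passed the threshold of 0.05 used throughout. Without replicate 1 instead, both were -0.09 (edgeR adjusted p 0.864 and 0.861). Without replicate 2 both were -0.16 (edgeR adjusted p 0.737 and 0.788). With all samples and no filter on low counts both comparisons passed (edgeR adjusted p 0.0219 and 0.0498). Their log2 fold changes were then -0.23 and -0.22, so the effects were no larger there. Without WT untreated replicate 3 the change under DSS in the knockout was -0.08 (edgeR adjusted p 0.753). Beside this, a list of 20 genes of mature colonocytes was counted: 14 of 20 fell under DSS in WT and none rose, with a median log2 fold change of -1.11 against 0.01 for all genes tested. In the knockout 10 of the 20 fell and none rose, with a median of -0.88. Slc9a3, the apical sodium-proton exchanger, changed by -3.59 (SE 0.15, edgeR adjusted p 3.66e-09) and Tmigd1 by -3.64 (SE 0.19, edgeR adjusted p 2.3e-08) under DSS in WT. In bulk RNA, fewer cells of a type and less RNA per cell cannot be told apart.

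2010109I03Rik (ENSMUSG00000063522.5, chromosome 15, 74876987 to 74897021, minus strand) was lower in every DSS sample than in any untreated sample of the same genotype. WT untreated libraries held 374, 327 and 184 counts, and WT DSS libraries 16, 11 and 6. Knockout untreated libraries held 140, 175 and 136 counts, and knockout DSS libraries 17, 34 and 34. As levels, this was 45.4 ± 14.8 CPM in WT untreated, 1.62 ± 0.737 in WT DSS, 18.8 ± 2.60 in knockout untreated and 4.24 ± 1.09 in knockout DSS. No 2 of the groups compared overlapped. WT untreated was highest and WT DSS lowest, with both knockout groups between them.

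The ratio of means was 28.0-fold in WT and 4.42-fold in the knockout. The log2 fold change under DSS was -4.79 (SE 0.36) in WT and -2.13 (SE 0.32) in the knockout, a difference of 2.66 (SE 0.48) between them. The knockout was at -1.28 (SE 0.29) relative to WT untreated and at 1.38 (SE 0.39) relative to WT under DSS, so the order of the genotypes turned over. Without WT untreated replicate 3 these were -5.04 for DSS in WT, -1.52 between untreated genotypes and 2.91 for the difference. The 4 comparisons share groups, so they are not independent of each other. As background, the groups did not overlap for 20.6% of all genes tested under DSS in WT and for 24.3% in the knockout. Between genotypes the share was 19.3% untreated and 22.4% under DSS. Nothing is read from these shares for a gene picked for its fall.

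Among 8856 genes of mean log2 CPM at least 3, the 3 closest to 2010109I03Rik in pattern over the 12 samples were all on the colonocyte list, which was made with earlier results of these data known. Likeness was the root mean square difference of log2 CPM after centring each gene on its mean. Slc9a3 differed by 0.51, Tmigd1 by 0.54 and Emp1 by 0.74. Slc9a3 went from 126 ± 8.44 CPM in WT untreated to 10.5 ± 1.44 in WT DSS, and from 89.8 ± 6.62 in knockout untreated to 16.4 ± 0.942 in knockout DSS. Tmigd1 stood at 84.0 ± 2.23, 6.73 ± 0.946, 51.1 ± 5.25 and 13.6 ± 2.60 CPM in the same order. All 4 genes had the order WT untreated, knockout untreated, knockout DSS, WT DSS by group mean. The other 3 were picked for likeness over these same samples, so the shared order is not a separate result. The group means of 2010109I03Rik spanned 4.59 on the log2 scale and those of Lypd8 0.28.

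**Figure D2:**
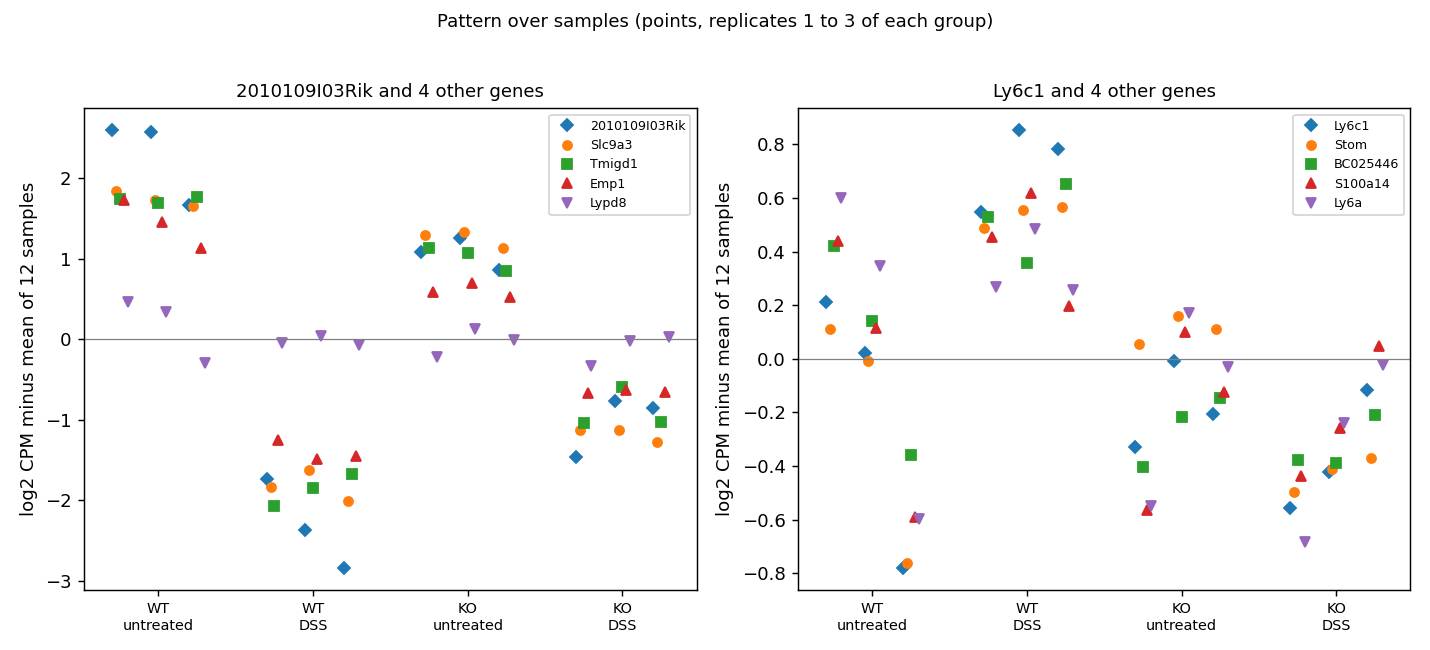
log2 CPM of each gene minus its mean over the 12 samples, by group, with points for replicates 1 to 3. Left, 2010109I03Rik with its 3 closest genes (Slc9a3, Tmigd1, Emp1) and Lypd8, which stays near 0. Right, Ly6c1 with its 3 closest genes (Stom, BC025446, S100a14) and Ly6a, where WT DSS is high and WT untreated replicate 3 is low.

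Ly6c1 (ENSMUSG00000079018.9, chromosome 15, 75044018 to 75048830, minus strand) was the 1 member of the 4 tested that changed under DSS in WT (with edgeR, 1 at an unadjusted p under 0.05 and 1 by DESeq2). Of all genes tested, 6.30% passed there and 20.6% did not overlap. Its level in WT untreated was 67.1, 58.8 and 33.6 CPM, and in WT DSS 84.9, 105 and 99.9. The WT DSS samples were all above the untreated ones. In knockout untreated it was 46.1, 57.6 and 50.2 CPM, and in knockout DSS 39.3, 43.2 and 53.4, which overlapped. Ly6c1 rose under DSS in WT by 0.86 on the log2 scale (SE 0.21, edgeR adjusted p 0.0251), from 53.2 ± 17.4 to 96.5 ± 10.4 CPM. In the knockout the log2 fold change was -0.18 (SE 0.21, edgeR adjusted p 0.778). Without WT untreated replicate 3 the WT change was 0.62 (edgeR adjusted p 0.0413). The call was lost without WT DSS replicate 2 (edgeR adjusted p 0.100) or replicate 3 (0.0874), and with only the WT samples in the fit (0.0762).

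Under DSS, Ly6c1 was lower in the knockout than in WT, at 45.3 ± 7.25 against 96.5 ± 10.4 CPM, which is -1.09 on the log2 scale (SE 0.21, edgeR adjusted p 0.0119). All 3 knockout DSS samples were below all 3 WT DSS samples. It was 1 of the 4 members tested that passed here, where 3.11% of all genes tested passed and 22.4% did not overlap. The call was lost without WT DSS replicate 2 (edgeR adjusted p 0.0528), knockout DSS replicate 1 (0.0598) or knockout DSS replicate 2 (0.0669). Untreated, WT was at 53.2 ± 17.4 CPM and the knockout at 51.3 ± 5.85 (-0.05 on the log2 scale, SE 0.21, edgeR adjusted p 0.955). The sign turned when libraries were scaled by their totals alone. The difference between genotypes in the DSS change was -1.04 (SE 0.30) and did not pass with edgeR (adjusted p 0.135), while DESeq2 gave an adjusted p of 0.0427. It also passed with edgeR on library totals alone (0.0451) and with no filter (0.00504). The comparisons share the WT DSS samples.

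**Figure D3:**
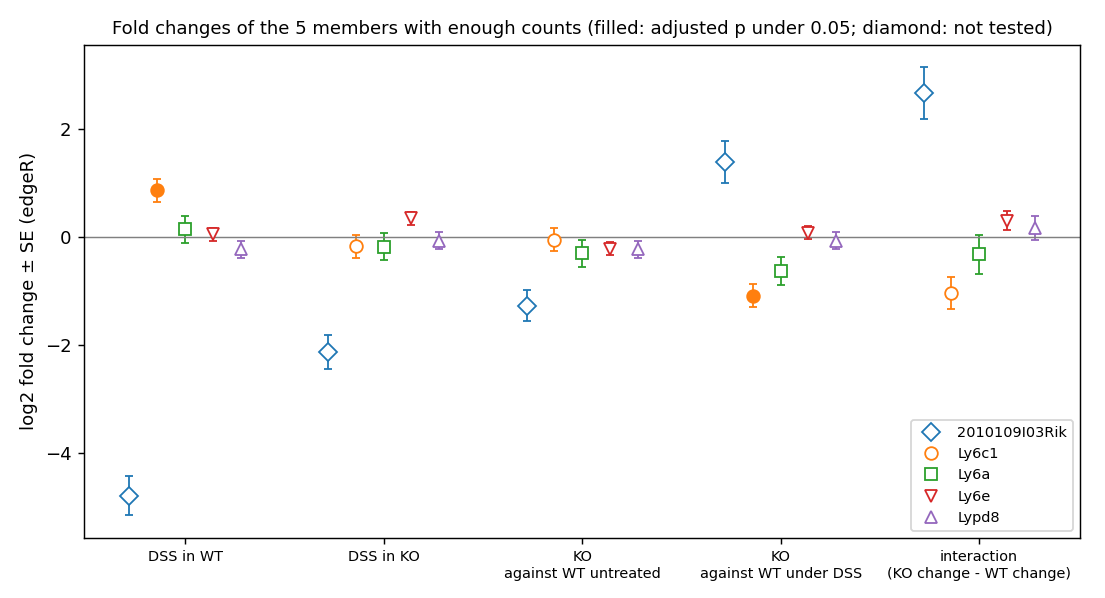
log2 fold change ± SE from edgeR for the 5 members with enough counts in 5 contrasts, the last being the knockout change minus the WT change. Filled marks passed at an adjusted p under 0.05, open marks did not, and the diamond (2010109I03Rik) was not tested. Only Ly6c1 is filled, at 0.86 for DSS in WT and -1.09 for knockout against WT under DSS.

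The exons of Ly6c1 share sequence with its neighbours: 32.8% of its 50-base words also occur in Ly6c2, Ly6a or Ly6i, so the split of reads between these genes is uncertain. Reads of Ly6a could reach Ly6c1 by this route, so the ratio of both was taken. In WT untreated there were 6.66, 6.96 and 7.67 Ly6c1 counts per 100 Ly6a counts, and in WT DSS 10.6, 11.3 and 12.6. In knockout untreated there were 10.2, 7.71 and 7.72, and in knockout DSS 9.52, 7.69 and 8.17. The WT DSS samples were above the 9 others in this ratio. The ratio covers Ly6a only, not Ly6c2 or Ly6i, and the passing of reads between these genes was not tested. The 3 genes closest to Ly6c1 in pattern were Stom (0.20), BC025446 (0.22) and S100a14 (0.23). Stom, a membrane scaffold protein, stood at 90.5 ± 26.8, 148 ± 4.40, 110 ± 4.01 and 75.9 ± 3.46 CPM in WT untreated, WT DSS, knockout untreated and knockout DSS.

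Ly6c2 (chromosome 15, 75108158 to 75111970, minus strand) was the 1 relative outside the 7 that passed in the edgeR fit over all 12 samples. It met the count filter of that fit only through knockout libraries, where it is high. Its calls against WT untreated rest on that selection and are not independent support. It had 0, 0 and 0 counts in WT untreated and 5, 10 and 2 in WT DSS. Knockout untreated libraries held 7, 13 and 13 counts, and knockout DSS libraries 5, 6 and 17. Against a floor of 3 counts over the WT untreated group, Ly6c2 was 5.85-fold higher in WT DSS and 9.65-fold higher in knockout untreated. The edgeR adjusted p was 0.0335 and 0.0224 for these comparisons, from the counts themselves and not from the floor. The floor allows for counting error in WT untreated only, not for spread between replicates or error in the other group. Both calls are from the fit over all 12 samples. With only the groups compared in the fit, Ly6c2 did not pass the count filter and was not tested in either comparison. The first call was lost with the replicate block (0.0648) and in 8 of the 12 fits that left out 1 sample, and the second in 5 of the 12. The promoters of Ly6c1 and Ly6c2 are shown because this pair shares the most exon sequence. Each run is the 250 bases before the first RefSeq start site listed (GRCm38.p6, minus strand, 5′ to 3′), and the capitals mark the longest run of letters that both share, 20 bases long.
Ly6c1, chr15:75048838-75049087: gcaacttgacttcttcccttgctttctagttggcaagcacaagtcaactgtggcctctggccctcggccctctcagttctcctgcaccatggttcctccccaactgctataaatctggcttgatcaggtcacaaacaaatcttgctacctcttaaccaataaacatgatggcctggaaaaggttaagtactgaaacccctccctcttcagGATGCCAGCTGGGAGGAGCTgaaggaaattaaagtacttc
Ly6c2, chr15:75111972-75112221: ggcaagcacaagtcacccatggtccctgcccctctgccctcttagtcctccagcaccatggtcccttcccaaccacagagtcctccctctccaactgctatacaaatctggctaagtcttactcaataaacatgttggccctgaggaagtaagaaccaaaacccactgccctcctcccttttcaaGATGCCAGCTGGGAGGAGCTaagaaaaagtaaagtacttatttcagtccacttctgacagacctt
The shared run starts 40 bases before the start site in Ly6c1 and 65 bases before it in Ly6c2. A global alignment matched 164 of 284 columns (57.7%), with gap columns counted as unmatched. Of the 7 members, 2 had a promoter in the RefSeq table, Ly6c1 and Lypd8. Both strands were searched for the NF-kB decamer and the interferon-gamma site TTCNNNGAA. Neither of the Ly6c windows held a match, while 7.25% and 7.02% of all 32851 windows of this length did.

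**Figure D4:**
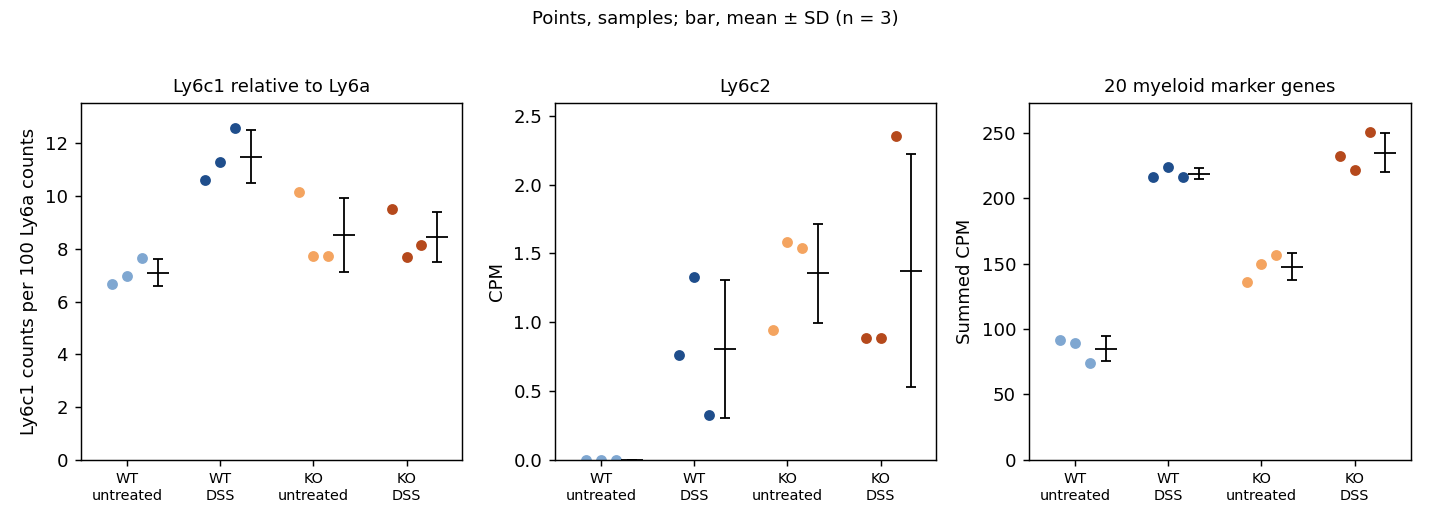
Left, Ly6c1 counts per 100 Ly6a counts; middle, Ly6c2 level (CPM); right, the summed CPM of 20 myeloid marker genes. Points are samples and bars mean ± SD (n = 3). The ratio is highest in WT DSS (10.6 to 12.6), Ly6c2 is 0 in WT untreated, and the myeloid sum is highest in both DSS groups.

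Markers of other cell types moved with some of these groups. The 20 myeloid markers summed to between 73.9 and 91.7 CPM in WT untreated, 216 and 224 in WT DSS, 136 and 157 in knockout untreated, and 222 and 251 in knockout DSS. Of the 13 tested, 4 rose under DSS in WT, 1 rose in the knockout, and none fell. The monocyte receptor gene Csf1r averaged 0.382, 4.36, 2.85 and 10.7 CPM in the same order. T-cell markers summed to between 16.3 and 35.7 CPM in WT untreated, 39.2 and 55.1 in WT DSS, 81.0 and 99.7 in knockout untreated, and 98.8 and 142 in knockout DSS. The 20 endothelial markers summed to between 2.47 and 12.2 CPM over all libraries, with 7 at 0 throughout, and Cdh5 had 1 count in all. The 15 B-cell and plasma-cell markers summed to between 13.6 and 64.2 CPM in WT untreated, 74.8 and 79.2 in WT DSS, 19.4 and 24.3 in knockout untreated, and 19.1 and 42.7 in knockout DSS. Ly6c1 was highest in WT DSS, as were the B-cell and plasma-cell sums. Of these 15 markers 4 were tested, and 0 passed for DSS in WT. Ly6c1 and these sums were lowest of their group in WT untreated replicate 3. So were the T-cell, myeloid, goblet and colonocyte sums, though not the endothelial sum. The T-cell sums of both knockout groups were above both WT groups, and the myeloid sums of both DSS groups overlapped. The part of these cells in the Ly6c1 and Ly6c2 results was not tested.

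Ly6a (ENSMUSG00000075602.9, chromosome 15, 74994877 to 74998031, minus strand) passed in none of the 5 contrasts. Its level was 1007, 845 and 438 CPM in WT untreated, and 800, 929 and 794 in WT DSS. It was 453, 747 and 650 CPM in knockout untreated, and 413, 562 and 654 in knockout DSS. All 3 knockout DSS samples were below all 3 WT DSS samples. The means under DSS were 543 ± 121 and 841 ± 76.2 CPM, which is -0.63 on the log2 scale (SE 0.25, edgeR p 0.0252, adjusted p 0.243). It passed with only the DSS samples in the fit (edgeR adjusted p 0.0246) and with no filter (2.33e-06). The log2 fold change with no filter was also -0.63, so the effect was no larger there. Under DSS the log2 fold change was 0.14 (SE 0.25, edgeR adjusted p 0.862) in WT and -0.18 (SE 0.25, edgeR adjusted p 0.811) in the knockout. The WT value was -0.14 without WT untreated replicate 3, the lowest Ly6a sample of its group.

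Ly6e (ENSMUSG00000022587.13, chromosome 15, 74955051 to 74959905, plus strand), whose product is best known for effects on virus entry, passed in none of the 5 contrasts. Its group means spanned 0.34 on the log2 scale, against 0.65 for Ly6a and 1.09 for Ly6c1. Its level was 1352, 1288 and 1033 CPM in WT untreated, and 1247, 1321 and 1219 in WT DSS. In knockout untreated it was 900, 1182 and 1077 CPM, and in knockout DSS 1138, 1384 and 1477. These groups overlapped in each comparison. The log2 fold change under DSS in the knockout was 0.34 (SE 0.13, edgeR p 0.0168, adjusted p 0.180; 0.0397 with no filter), and in WT 0.04 (SE 0.13, edgeR adjusted p 0.921).

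A list of interferon-induced genes was counted beside both. In 28 of its 32 genes the DSS change was higher in the knockout than in WT past the threshold, and in 1 it was lower. Of the 32, all tested, 30 rose under DSS in the knockout and none fell, with a median log2 fold change of 0.91 against 0.02 for all genes tested. Under DSS in WT 4 rose and 13 fell, with a median of -0.38. Between genotypes under DSS 26 were higher in the knockout and none lower. Ifit1 differed by 1.96 (SE 0.14, edgeR adjusted p 2.13e-06) and Rsad2 by 1.85 (SE 0.17, edgeR adjusted p 1.49e-05). In that comparison Ly6e was at 0.08 (edgeR adjusted p 0.845) and Ly6a at -0.63. Neither passed.

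In the knockout, 0 of the 4 members tested passed under DSS with edgeR, where 3.92% of all genes tested did. At an unadjusted p under 0.05 there was 1 (Ly6e), and DESeq2 called 0. Between untreated genotypes 0 of 4 passed with edgeR against 3.48% of all genes tested, with 0 at an unadjusted p under 0.05 and 0 by DESeq2. For the difference between genotypes in the DSS change 0 of 4 passed with edgeR against 1.70%, with 1 at an unadjusted p under 0.05 and 1 by DESeq2, which was Ly6c1 in both.

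Ly6d and Lypd2 were nearly or wholly undetected. Ly6d, a marker of early B cells and squamous epithelium, had 0, 0 and 0 counts in WT untreated and 1, 9 and 1 in WT DSS. It had 1, 3 and 3 counts in knockout untreated and 3, 4 and 3 in knockout DSS. WT DSS replicate 2 alone reached 9 counts, and no other library was above 4. Lypd2 had no count in any of the 12 libraries. A count of 0 allows up to 3 counts, or 0.37 to 0.54 CPM of the library total, for counting error only. Of 20 squamous genes, 8 were at 0 in all 12 libraries, Krt5 and Trp63 among them. The list summed to between 798 and 1363 CPM, and Krt14 had 6 to 33 counts in every library.

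**Figure D5:**
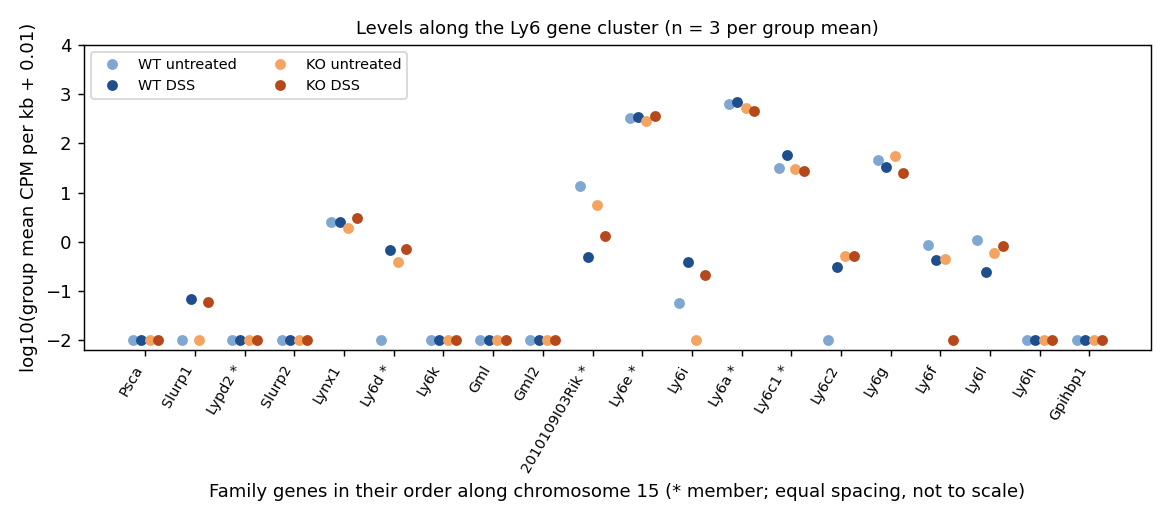
Group mean level on a log10 scale (CPM per kb + 0.01) of 20 family genes in their order along chromosome 15, with equal spacing. Asterisks mark the 6 members there, and -2 means no count. Levels are highest at Ly6e and Ly6a, and 2010109I03Rik, between Gml2 and Ly6e, is lowest in WT DSS.

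The wider family list held 45 other genes, of which 40 matched the files. Of these, 8 were tested, 12 had counts but too few to test, and 20 were at 0 in all samples. Ly6c2 was the one that passed in that fit. Ly6g, named after its values were seen (chromosome 15, 75155240 to 75159126, plus strand), encodes a neutrophil antigen. Its level was 53.8, 57.0 and 15.9 CPM in WT untreated, 32.6, 36.3 and 26.0 in WT DSS, 42.7, 67.2 and 49.2 in knockout untreated, and 15.5, 27.2 and 28.6 in knockout DSS. All 3 knockout DSS samples were below all 3 knockout untreated samples. In the 12-sample fit the log2 fold change was -1.15 (SE 0.37, edgeR adjusted p 0.115). It passed with DESeq2 (adjusted p 0.0319), and with edgeR without WT untreated replicate 3 (0.0105), with only the knockout samples (0.0329) or with no filter (7.91e-06). The neutrophil genes S100a8 and S100a9 had at most 6 and 2 counts in any library, and Cxcr2 at most 8. Csf3r, another neutrophil gene, reached 34 counts and was at 0.721 ± 0.360 CPM in knockout untreated and 3.45 ± 1.09 in knockout DSS. Their part in the Ly6g values was not tested.

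Genes that build and attach the GPI anchor were a further list. Of 29 tested, 1 fell under DSS in WT and 1 rose in the knockout, with medians of 0.03 and 0.03. Among all genes tested, 6.30% passed for DSS in WT and 3.92% in the knockout, so nothing is read from these counts. Pgap1, which trims the anchor after attachment, changed by -1.54 (SE 0.27, edgeR adjusted p 0.00221) under DSS in WT. Pigv, a mannosyltransferase of the pathway, rose by 0.65 (SE 0.16, edgeR adjusted p 0.0327) under DSS in the knockout and was 0.68 (SE 0.16, edgeR adjusted p 0.0303) higher in knockout than in WT under DSS.

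Goblet and regenerative genes were the other epithelial lists. The share of all genes tested that passed was 6.30% for DSS in WT and 3.92% in the knockout. Of 14 goblet genes, 3 fell and none rose under DSS in WT, while 6 rose and none fell in the knockout. Ang4, an antimicrobial protein, changed by -1.92 (SE 0.30, edgeR adjusted p 0.000877) in WT and by 1.41 (SE 0.29, edgeR adjusted p 0.0141) in the knockout. The regenerative list holds genes known from repairing colon epithelium, where Ly6a is also a known marker; Ly6a was not on it. Of the 14 tested, 4 rose and 1 fell under DSS in WT, and 3 rose and 1 fell in the knockout. Ccn1, a matrix protein, rose by 1.46 (SE 0.15, edgeR adjusted p 2.33e-05) in WT.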

How the data were processed

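RNA of colonic epithelial cells was sequenced after SMARTSeq v2 library preparation from 2 ng of RNA, per the labels' protocols. The deposited values are raw counts per gene, made by the authors with tools named in the submitters' processing notes: STAR 2.5.2b and featureCounts 1.5.0, with builds GRCm38 and mm10. The annotation, strand setting and treatment of reads that map to several genes are not given in the sources used here. IDs were matched to GENCODE M21 without the version (46005 of 46517), so exon lengths are those of M21.

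Counts were fitted over all 12 samples with edgeR 4.0.16 (limma 3.58.1, R 4.3.3): filterByExpr (12522 genes, 99.8% of counts), TMM, 1 coefficient per group, quasi-likelihood F test, Benjamini-Hochberg adjustment over all genes tested, two-sided, threshold 0.05. SE is the absolute log2 fold change over the square root of F. The fitting code was tested on simulated data. DESeq2 1.42.0 was an alternative, beside other scalings, filters, sample sets and a replicate block. Replicates differed beyond sampling noise (chi-square per degree of freedom 5.13 to 20.1). Same-numbered samples deviated together for DSS in the knockout (r 0.20, 0.11 and 0.13), where the numbers were taken to pair samples. This is a hint from the data and not the design, and r for DSS in WT was 0.01, 0.12 and 0.13.

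Named were the 7 members, relatives that passed in any contrast, up to 3 genes past the threshold of each list in a contrast where a member passed, and the 3 genes closest in pattern to a member whose group means span at least 1 log2 unit. Other genes with values were named after their values were seen. The members and lists were chosen with earlier results of these data known. Gm10639, BC025920 and BC048671 were dropped from the family list, since they are not family genes.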

Additional observations from a re-analysis of the deposited data

How the results depend on the processing

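Genes called numbered 789 for DSS in WT, 491 for DSS in the knockout, 436 between untreated genotypes, 390 between genotypes under DSS and 213 for the interaction. DESeq2 gave 800, 790, 662 and 368 for the last 4, and no filter gave 776, 703, 642 and 356. Calls of members gained with no filter came with log2 fold changes close to those of the filtered fit. With only the groups compared, DSS in WT gave 467 and untreated genotypes 195. Leaving out each sample in turn gave 483 to 958, 235 to 710, 212 to 725, 160 to 566 and 152 to 350, in the same order. Counts moved by over 1.5 times without any 1 of the WT DSS replicates for DSS in WT (483 to 523) and without any 1 of the 6 samples compared for DSS in the knockout (235 to 302) and for genotypes under DSS (160 to 231). For untreated genotypes they did so without WT untreated replicate 2 (261) or 3 (725) or any 1 of the knockout untreated replicates (212 to 236), and for the interaction without WT untreated replicate 3 (350). The cause was not tested, and each of these fits had fewer samples.

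With the replicate block the counts were 695, 409, 345, 290 and 186, and no call of a member changed. Outside DSS in the knockout, r between same-numbered samples ran from -0.18 to 0.13, and for DSS in WT it was 0.01, 0.12 and 0.13. Same-numbered untreated and DSS samples carry adjacent library numbers in both genotypes. Scaling by library totals alone moved the median of all genes to 0.10 for DSS in WT, 0.11 between untreated genotypes and -0.13 for the interaction, and the share of calls that were higher from 44.5% to 59.6% for DSS in WT, from 49.3% to 69.2% between untreated genotypes and from 69.0% to 52.4% for the interaction. It also turned Ly6c1 between untreated genotypes to 0.0799.

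Over the fits leaving out 1 sample, log2 fold changes that changed sign ran from -0.14 to 0.38 (Ly6a, DSS in WT), -0.29 to 0.15 (Ly6c1, untreated genotypes), -0.0655 to 0.12 (Ly6e, DSS in WT), -0.00166 to 0.18 (Ly6e, genotypes under DSS), -0.16 to 0.0274 (Lypd8, DSS in the knockout), -0.14 to 0.0309 (Lypd8, genotypes under DSS), -0.61 to 0.26 (Ly6c2, DSS in the knockout) and -0.0604 to 0.60 (Ly6g, untreated genotypes). None of these had passed. Of 645 alternative values, 598 were counted as the same, 20 lost a call, 14 gained one and 13 changed sign. For tested genes the same meant the direction and side of the threshold were kept. The values of 2010109I03Rik, which was not tested, are among the 645 and were judged by direction and size only. The SE of a log2 fold change was 0.25 for Ly6a, 0.21 for Ly6c1 and 0.13 for Ly6e under DSS in WT.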
